A study of Drosophila melanogaster with 3 samples.

Results

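The fkh peaks described here lie at divergent coding promoters, where the starts of a gene on the minus strand and a gene on the plus strand are close together. A peak of the authors' optimal dm6 list was a member if its summit, the base of strongest enrichment, lay within 500 bp of the transcription starts of at least 2 protein-coding genes on opposite strands. Of the 9531 peaks of that list, 985 met this rule. A further 2969 peaks had coding starts of one strand only within 500 bp and are called one-sided, and 5577 had none. Of the 985 members, 955 lay at starts that point away from each other, and at the other 30 the nearest starts overlap, so the word divergent holds in its strict sense for the 955. The peaks came from 1 group, whole Drosophila melanogaster prepupae of a transgenic line, males and females pooled, in which fkh carries green fluorescent protein at its C terminus. Chromatin from 3 biological replicates was sheared by sonication and precipitated with an antibody to the green fluorescent protein. Per the labels the insertion targets fkh itself, and they do not state if this added a gene copy.

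fkh gave its name to the forkhead (Fox) proteins, DNA-binding factors that recognise a short AT-rich core, and in the fly it is known for its part in the salivary glands and the gut. Divergent promoters are frequent in the compact fly genome. They often serve genes that most cells use, start transcription in both directions from one nucleosome-poor stretch, and are rich in core promoter words such as the DRE, the site of the factor DREF, and motif 1, the site of M1BP. Because the animals were whole, a strong peak may come from strong binding in few cells or weaker binding in many, and these cannot be told apart.

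The lists hold no read counts, so the depth behind each peak is unknown, and the intervals below cover counting error only. Each peak has a signal, the authors' own strength score, whose scale is not stated. Since each list has its own signal scale, a region's strength in a replicate is given as its rank among the 30000 of that replicate's list, with 1 the strongest. Replicate 1 stood apart at these promoters. Of the members, 66.2% had their lowest rank of the 3 (the largest number) in replicate 1, against 35.7% of the one-sided peaks and 29.6% of all optimal peaks. The 5577 peaks at no coding start went the other way, with 19.9% lowest and 48.8% highest in replicate 1. Ranks are relative within a list, so a low rank at members does not show less binding there. Results that combine the replicates are therefore given for each of them as well.

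The DNA between the 2 starts is shown for the strongest pairs with 60 to 300 bases between the starts and no annotated exon there. Each line gives the pair, minus-strand gene first, the place in the dm6 build and the plus strand read 5′ to 3′ (release 6 assembly). Capitals mark the forkhead word TRTTTRY, where R is A or G and Y is C or T, on either strand.
CG15814/Spt7, chrX:17850343-17850459: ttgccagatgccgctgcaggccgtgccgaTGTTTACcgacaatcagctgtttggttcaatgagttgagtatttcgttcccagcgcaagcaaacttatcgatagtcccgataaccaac
CG1677/CG2059, chrX:7286196-7286357: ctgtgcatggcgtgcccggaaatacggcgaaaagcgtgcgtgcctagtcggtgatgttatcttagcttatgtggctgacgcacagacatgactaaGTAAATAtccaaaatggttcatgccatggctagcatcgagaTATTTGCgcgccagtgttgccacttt
Gk1/CG13876, chr3L:205845-206133: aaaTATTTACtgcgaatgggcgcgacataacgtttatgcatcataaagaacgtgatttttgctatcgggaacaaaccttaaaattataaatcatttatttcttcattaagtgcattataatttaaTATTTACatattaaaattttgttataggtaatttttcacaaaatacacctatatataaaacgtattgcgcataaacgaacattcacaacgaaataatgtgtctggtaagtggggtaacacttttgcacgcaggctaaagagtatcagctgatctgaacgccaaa
trbd/dmt, chr3R:9711038-9711141: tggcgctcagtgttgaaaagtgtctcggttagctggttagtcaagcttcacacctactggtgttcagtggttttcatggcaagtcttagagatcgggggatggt
CG4022/Cpsf5, chr3L:9410833-9411037: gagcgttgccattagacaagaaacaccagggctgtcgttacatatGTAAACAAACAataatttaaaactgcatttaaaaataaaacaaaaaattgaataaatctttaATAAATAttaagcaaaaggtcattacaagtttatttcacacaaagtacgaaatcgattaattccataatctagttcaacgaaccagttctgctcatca
CG10973/Vps13D, chr3L:12754775-12755048: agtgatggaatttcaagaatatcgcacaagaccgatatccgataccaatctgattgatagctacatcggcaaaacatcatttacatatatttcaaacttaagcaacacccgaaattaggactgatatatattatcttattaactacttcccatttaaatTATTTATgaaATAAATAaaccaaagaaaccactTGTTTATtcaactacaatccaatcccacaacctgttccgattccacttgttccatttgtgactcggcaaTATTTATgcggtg

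The strongest member of all lay in the first of these stretches, between CG15814 (FBgn0030873), a gene of no stated role in the files, and Spt7 (FBgn0030874), which encodes a subunit of the SAGA histone acetyltransferase complex. The starts are 118 bp apart and the summit fell on base 27 of the stretch, a few bases before its single forkhead word. The stretch between CG4022 and Cpsf5, a gene of mRNA 3′ end processing, holds 3 words, of which 2 overlap in the run GTAAACAAACA just after the summit at base 45. The stretch between trbd, a deubiquitinase gene, and dmt, a gene of sister chromatid cohesion, holds no such word, and none lay within 50 bp of its summit either. That of CG10973 and Vps13D, a gene of lipid transfer and organelle clearance, holds 4 words, and its summit lay 1 bp past the Vps13D start. Over all stretches of this kind in the genome, the word was present in 52.0% of 433 with a member peak (exact 95% interval 47.1% to 56.8%) and 45.1% of 630 without one (41.1% to 49.1%). The median length was 209 bp with a peak and 189 bp without, and its part in that difference was not tested.

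Further stretches are shown for the DRE word TATCGATA, in capitals, with the same conventions. RpL34a encodes a ribosomal protein, and Trmt61 is named for a tRNA methyltransferase.
RpL34a/Trmt61, chr3R:26059268-26059495: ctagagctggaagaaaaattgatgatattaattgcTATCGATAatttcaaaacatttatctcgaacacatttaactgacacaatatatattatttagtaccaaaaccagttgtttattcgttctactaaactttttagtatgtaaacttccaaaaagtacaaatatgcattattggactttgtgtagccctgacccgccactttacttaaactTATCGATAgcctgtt
shams/CG11920, chr3R:25074608-25074876: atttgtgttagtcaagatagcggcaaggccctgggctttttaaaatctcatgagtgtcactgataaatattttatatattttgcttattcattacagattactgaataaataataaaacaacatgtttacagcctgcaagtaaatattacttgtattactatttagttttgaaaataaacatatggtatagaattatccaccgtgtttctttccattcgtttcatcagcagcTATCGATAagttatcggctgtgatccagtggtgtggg

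The RpL34a stretch holds the DRE near each end, the second one close to the Trmt61 start. The first stretch above, of CG15814 and Spt7, also has a DRE near the Spt7 start. The DRE was present in 15.9% of the 433 stretches with a member peak (12.6% to 19.7%) and 15.2% of the 630 without one (12.5% to 18.3%). Motif 1, searched by its core GGTCACAC, was in 8.31% with a peak and 6.51% without, and these intervals overlap too.

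Member summits fell mostly between the starts and close to one of them. Among the 955 members at starts pointing away from each other, the starts were a median of 265 bp apart, and for 80% of members the distance was between 62 and 468.6 bp. Of all 985 members, 671 (68.1%, 65.1% to 71.0%) had the summit between the starts. Where the starts were over 0 to 100 bp apart the share was 30.2% of 182 members, and it was 55.4% at 100 to 200 bp, 76.8% at 200 to 300 bp, 83.3% at 300 to 400 bp and 89.3% at 400 to 600 bp. At 600 to 1000 bp all 27 members lay between. The rule itself favours this increase, since the sequence outside the starts that is within 500 bp of both shrinks as they move apart and is nil beyond 500 bp, so it is given as a description. The 295 summits outside starts that point away from each other were a median of 48 bp past the nearer one, and 153 of them were within 50 bp of it.

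**Figure D1:**
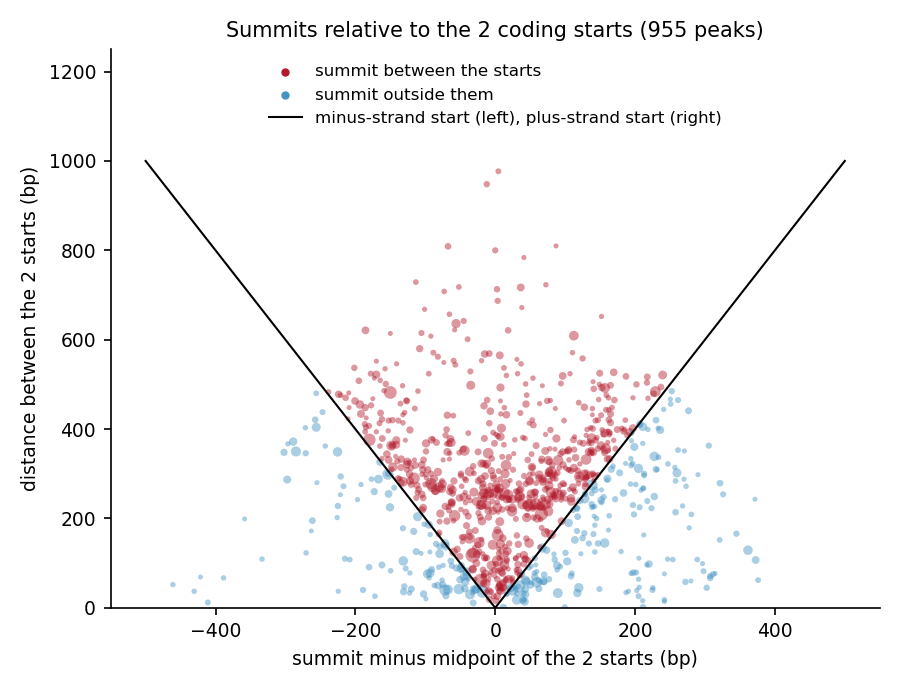
The position of each summit (bp from the midpoint of the 2 starts, x axis) is plotted against the distance between the starts (bp, y axis) for the 955 members whose starts point away from each other. Point area grows with the authors' signal, the black lines mark the starts, and red summits lie between them, while blue summits lie outside, mostly close to a line.

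The median distance from the summit to the nearest coding start was 58 bp for members and 145 bp for one-sided peaks. Members have starts on both sides, which shortens this distance by construction. Within 100 bp of a start lay 71.4% of member summits, against 39.0% of one-sided summits. Among 660 summits between starts that point away, 33.3% lay in the central of 3 equal parts of the gap (29.7% to 37.1%), as an even spread would also give. The nearer start was on the plus strand for 573 members and on the minus strand for 411, and 1 was equidistant. Only 1.93% of members also lay within 500 bp of the start of a non-coding gene, against 6.03% of one-sided peaks.

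The 985 summits lay in 916 distinct intervals and belonged to 805 gene pairs. Most pairs, 627, had 1 member summit, 176 had 2, and endos/CG6650 and Elp6/Dic1 had 3. endos encodes an inhibitor of the phosphatase PP2A that acts in cell division. Its summits had signals of 537.8, 255.6 and 214.7, and the first and last of these share an interval and so share their ranks of 4685, 588 and 2273 in replicates 1, 2 and 3. The 3 summits of Elp6/Dic1 had 384.9, 256.9 and 169.0. At these pairs the summits spread over alternative starts, so the values are not independent. By chromosome arm, members were 122 of 1483 peaks on X (8.23%, 6.88% to 9.74%) and 272 of 2281 on 3R (11.9%, 10.6% to 13.3%), with 190 members on 2L, 191 on 2R, 207 on 3L and 3 on chromosome 4.

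Members were on the whole stronger than other peaks. Their signal ran from 160.1 to 2809.3, with quartiles of 249.6 and 602.3 and a median of 382.6 (order-statistic 95% interval 359.3 to 398.1). The median was 308.4 for one-sided peaks (298.5 to 317.4), 276.6 for peaks at no coding start and 294.1 over all 9531. The 1000 strongest peaks, 10.5% of the list, held 177 members (18.0% of members, 15.6% to 20.5%) and 346 one-sided peaks (11.7% of these). The 100 strongest held 16 members. In the strongest quintile of the list were 31.2% of members and 21.3% of one-sided peaks, and in the weakest were 10.9% of members and 17.8% of one-sided peaks. These shares describe 1 pooled signal over 3 replicates and carry no test.

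The 15 pairs with the strongest members ranked between 5 and 228 in every replicate. The summit of CG15814/Spt7 had a signal of 2809.3 and ranks of 16, 5 and 7 in replicates 1, 2 and 3. It was followed by hts/CalpA, the genes of the membrane skeleton protein adducin and of a calpain protease, with 2215.2 and ranks of 18, 33 and 15. CG13185/cuff came next with 2089.5 and ranks of 41, 24 and 22, and cuff acts in the piRNA pathway that silences transposons. Both of these pairs kept within the first 41 ranks in each replicate. The ubiquitin ligase gene park (parkin) and Targ3 share the peak of 2087.9, and the spindle checkpoint kinase gene Mps1 shares one of 1984.0 with CG7523. Their ranks were 60, 15 and 23 for park/Targ3 and 68, 16 and 37 for CG7523/Mps1, so in both the rank in replicate 1 was the lowest.

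The next pairs were Adat1/CG16865 with 1876.7, CG8089/CG7544 with 1874.1, CG1677/CG2059 with 1794.6, Mppe/pds5 with 1659.3 and Gk1/CG13876 with 1641.0. Adat1 encodes a tRNA adenosine deaminase, pds5 a regulator of cohesin and Gk1 a glycerol kinase. Rnb/Drice, with the gene of an effector caspase, had 1638.1 and ranks of 180, 31 and 94. trbd/dmt had 1622.6, CG4022/Cpsf5 1614.8, Golgin104/Tcs3 1613.2 and CG10973/Vps13D 1609.9. Golgin104 encodes a Golgi protein and Tcs3 an enzyme of tRNA modification. Of these 15 pairs, 12 had the forkhead word within 50 bp of the summit, and CG7523/Mps1, CG8089/CG7544 and trbd/dmt did not. The word was near 44.8% of all members and 58.9% of the strongest quintile of members. In 13 of the 15, replicate 1 gave the lowest rank, as it did for 66.2% of all members. The exceptions were hts/CalpA and Gk1/CG13876, lowest in replicate 2 at 33 and 134.

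Among the strongest 200 members the ranks of 3 pairs differed most between replicates. CG8950/Mov10, with an RNA helicase gene, ranked 518 in replicate 1 and 229 in replicate 3 and had no region in replicate 2. CG5961/Polr3C, with the gene of an RNA polymerase III subunit, ranked 1097, 9432 and 781, so replicate 2 alone was low. Brr2/CG10516, with the gene of a helicase of the spliceosome, ranked 230, 331 and 33. These pairs had signals of 1186.4, 763.9 and 1386.8 in the same order.

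Members recurred in the replicates. Of the 985, 830 (84.3%, 81.8% to 86.5%) were among the strongest 9531 regions of every replicate, by an overlap of at least 1 bp, against 75.6% of one-sided peaks and 72.9% of all optimal peaks. In 2 replicates there were 116, in 1 there were 39 and in none 0. The share followed the signal and ran from 45.7% in the weakest quintile of members through 81.7%, 95.4% and 99.0% to 99.5% in the strongest. The optimal list was made from these replicates, so recurrence is in part built in. Members also had the higher median signal, 382.6 against 308.4 for one-sided peaks. Its part in the higher recurrence of members was not tested. The share of members was 46.9% where 50% of each region had to be shared. No one-sided share was taken under that rule, so it does not show if the lead of members holds there.

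The replicates ranked members above one-sided peaks to unequal degrees. The median rank of members was 3364 in replicate 1, 2131 in replicate 2 and 2395 in replicate 3, a mean of 2630 ± 649 (SD, n = 3). That of one-sided peaks was 3950, 3960 and 3807, a mean of 3906 ± 85.6 (SD, n = 3). Peaks with no region in a replicate, 12, 12 and 3 members and 15, 41 and 11 one-sided peaks in replicates 1, 2 and 3, were placed just below the end of its list. Members thus stood higher in each replicate, and the medians of the groups did not overlap. As a share of the list, members minus one-sided peaks was -1.95, -6.10 and -4.71 percentage points, a mean of -4.25 ± 2.11 (SD, n = 3; exact two-sided sign-flip permutation test over replicates, p = 0.25). With 3 replicates 0.25 is the smallest p this test can give, so it cannot reach 0.05. Without replicate 1 the mean was -5.40 points.

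The place of divergent promoters at the top of the list differed most between replicates. In each replicate's own list, the 100 strongest regions held 8 at divergent coding promoters in replicate 1 (8.00%, 3.52% to 15.2%), 27 in replicate 2 (18.6% to 36.8%) and 25 in replicate 3 (16.9% to 34.7%). The 1000 strongest held 125, 240 and 206, and the 9531 strongest held 916, 1147 and 1195. One-sided coding promoters held 32, 36 and 35 of the 100 strongest in the same order. Replicates 2 and 3 were thus close to each other, and replicate 1 was low at divergent promoters, while its count at one-sided promoters was close to theirs. Over members, the median SD of log2 rank between replicates was 0.58, against 0.48 for one-sided peaks. Of the members, 57.4% had their highest rank in replicate 2, 31.2% in replicate 3 and 11.5% in replicate 1. What sets replicate 1 apart was not tested.

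**Figure D2:**
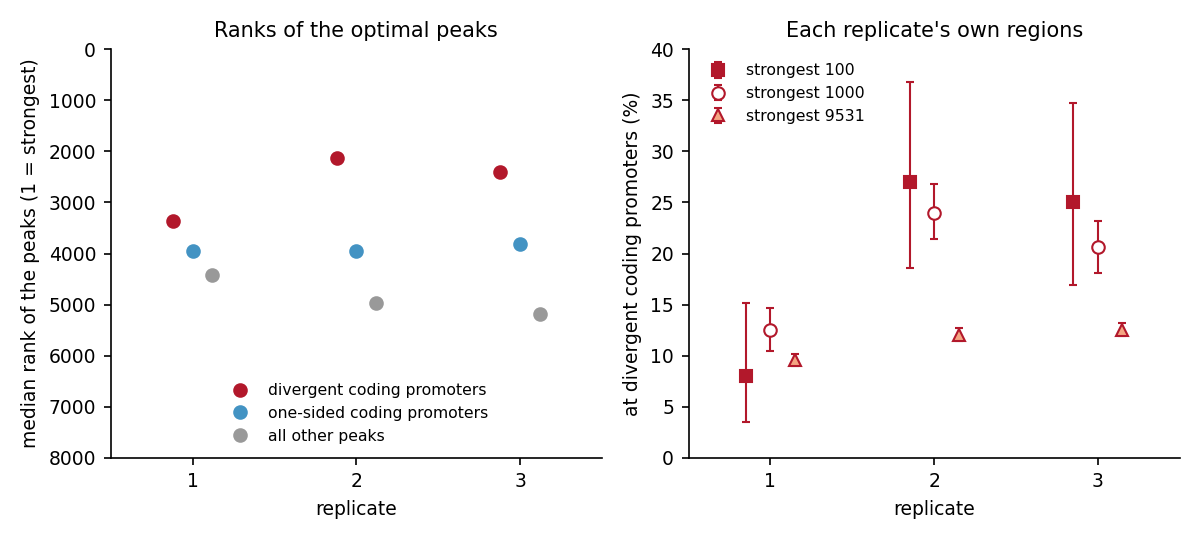
Left, the median rank (1 is the strongest, at the top of the y axis) of the 985 members, the 2969 one-sided peaks and the 5577 other peaks in each replicate; members stand above the others in all 3 replicates, with the smallest lead in replicate 1. Right, the percentage of each replicate's own 100, 1000 and 9531 strongest regions that lie at divergent coding promoters, with exact 95% intervals; the 100 strongest hold 8, 27 and 25.

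The forkhead word was less frequent at member summits than at one-sided summits, and core promoter words were more frequent. TRTTTRY lay within 50 bp of 44.8% of members (441 of 985, 41.6% to 47.9%), 52.9% of one-sided peaks and 58.5% of all optimal peaks. Windows of the same width 500 bp away held it in 17.3% for members, 24.0% for one-sided peaks and 25.2% for all. The DRE was within 50 bp of 7.31% of members (72 of 985, 5.76% to 9.12%), 2.53% of one-sided peaks and 1.70% of all optimal peaks, and in 0.254% of the members' windows 500 bp away. Mean GC content within 50 bp was 38.0% at members and 42.1% at one-sided peaks, and its part in these differences was not tested. Member summits also lay nearer to a coding start, at a median of 58 bp against 145 bp for one-sided summits. The part of this in the differences for these and the further words was not tested.

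In each replicate's own 9531 strongest regions, the forkhead word was at 48.3%, 43.2% and 43.6% of the regions at divergent promoters in replicates 1, 2 and 3. At one-sided promoters it was at 53.6%, 51.1% and 48.6%. The difference was -5.34, -7.92 and -5.03 percentage points, a mean of -6.09 ± 1.59 (SD, n = 3; exact two-sided sign-flip permutation p = 0.25, the smallest possible). The lower share depended on the window: within 100 bp of the summit the mean difference was 0.0317 points (exact permutation p = 1.0). The DRE was at 6.77%, 6.80% and 8.28% at divergent promoters and 1.94%, 2.92% and 2.91% at one-sided promoters. Its difference was 4.83, 3.88 and 5.38 points, a mean of 4.70 ± 0.756 (SD, n = 3; exact two-sided sign-flip permutation p = 0.25), and the groups did not overlap.

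The other core promoter words went the same way as the DRE. The core of motif 1 was near 6.80% of members and 2.26% of one-sided peaks. The core of motif 6 (GTATWTTT, W is A or T) was near 6.09% of members and 3.74% of one-sided peaks. The core of motif 7 (CAKCNCTR, K is G or T) was near 13.0% of members and 6.16% of one-sided peaks. At least 1 of these 4 words was near 28.6% of members (25.8% to 31.6%), 13.2% of one-sided peaks and 10.5% of all optimal peaks. The palindrome CAGCTG, an E-box, was near 11.1% of members and 7.61% of one-sided peaks. In replicates 1, 2 and 3 the difference, divergent minus one-sided, was 4.15, 3.44 and 2.96 points for motif 1, a mean of 3.52 ± 0.600 (SD, n = 3). For motif 6 it was 2.73, 2.88 and 2.00 points, a mean of 2.54 ± 0.468 (SD, n = 3). For motif 7 it was 7.24, 6.16 and 7.14 points, a mean of 6.85 ± 0.596 (SD, n = 3), and all of these were positive. For CAGCTG it was 4.27, 3.70 and 2.16 points, a mean of 3.38 ± 1.09 (SD, n = 3).

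Repeats and the GAGA word were scarcer at members than at one-sided peaks. GAGAG, bound by the GAGA factor, was near 8.02% of members and 19.1% of one-sided peaks, and was in 12.1% of the members' windows 500 bp away. The CA repeat CACACACA was near 1.93% of members and 6.23% of one-sided peaks. Both words were also scarce at divergent coding sites without a peak. Within 50 bp of the midpoint of the starts, GAGAG was at 7.65% and the CA repeat at 0.398% of all 2511 sites. The CA repeat was at 0.498% of sites with a peak and 0.268% of those with neither peak nor region. In replicates 1, 2 and 3 the difference, divergent minus one-sided, was -10.6, -10.2 and -11.3 points for GAGAG, a mean of -10.7 ± 0.508 (SD, n = 3). For the repeat it was -4.53, -4.01 and -4.38 points, a mean of -4.31 ± 0.266 (SD, n = 3). The TATA box TATAWAAR was near 4.77% of members and 3.91% of one-sided peaks, with differences of 0.846, 0.979 and 1.61 points. The GATA word WGATAR was near 17.2% of members and 19.7% of one-sided peaks, with differences of -3.62, -2.04 and -0.131 points. The narrower forkhead word TGTTTAY was near 17.4% of members and 20.1% of one-sided peaks, with differences of -0.247, -4.88 and -2.82 points. Each of the 11 words had the exact p of 0.25 in this test, so the p does not set them apart.

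**Figure D3:**
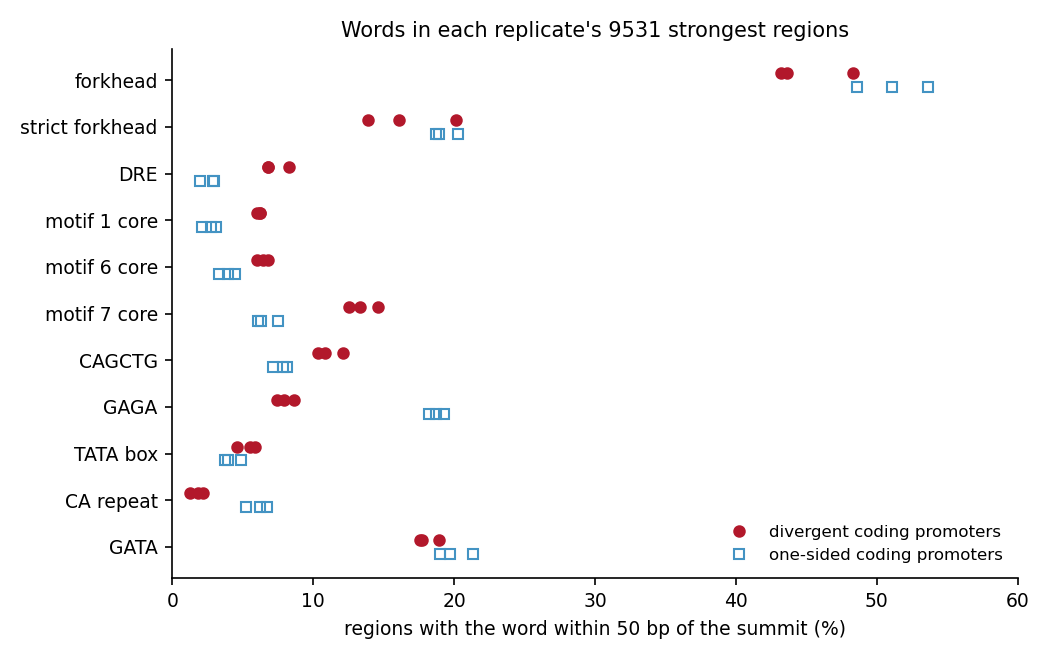
For each of 11 words, the percentage (x axis) of regions with the word within 50 bp of the summit is shown for each replicate's own 9531 strongest regions at divergent (filled circles) and one-sided (open squares) coding promoters, 1 point per replicate. Circles lie left of squares for the forkhead word, GAGA and the CA repeat and right of them for the DRE and the cores of motifs 1, 6 and 7.

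The forkhead word had a broader top around member summits and was less frequent far from them. In bins of 50 bp, it was in 26.9%, 26.7% and 26.6% of members in the bins centred 50 bp before the summit, at it and 50 bp after it, so the centre was no higher than its neighbours. At one-sided peaks the same bins held 27.5%, 34.4% and 25.5%, with the centre the highest. In the bins 100 bp to either side, members had 24.4% and 24.9%, against 20.0% and 18.7% of one-sided peaks. In the bins 500 bp to either side, members had 10.4% and 8.93%, against 13.5% and 13.2% of one-sided peaks. The nearest word lay 50 to 100 bp away at 27.2% of members and 18.1% of one-sided peaks, and its median distance was 53 bp at members and 42 bp at one-sided peaks. The DRE was in 3.25%, 3.96% and 3.55% of members in the 3 central bins, and in 2.54% and 1.83% in the bins 100 bp before and after the summit. At one-sided peaks the central bins held 0.977%, 1.25% and 1.41%, and the bins 100 bp before and after held 0.505% and 0.539%.

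**Figure D4:**
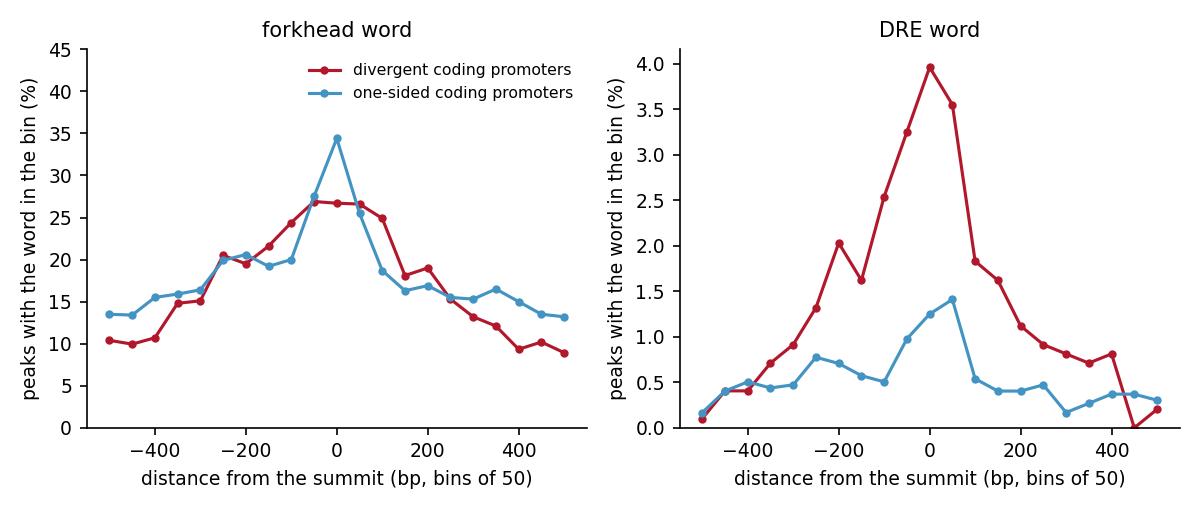
The percentage of peaks with the forkhead word (left) or the DRE (right) in bins of 50 bp (y axis) by distance from the summit (bp, x axis), for 985 members and 2969 one-sided peaks. The forkhead profile of members is flat across the 3 central bins at 26.6% to 26.9%, whereas that of one-sided peaks has its top of 34.4% at the summit.

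Members with the forkhead word had higher signals than those without it, while the intervals with and without the DRE overlapped. The median signal was 422.4 with the word (389.9 to 463.4, 441 members) and 356.3 without it (328.3 to 381.3, 544 members). With TGTTTAY it was 507.1, against 364.4 without. Median ranks with the word were 2951, 1833 and 2143 in replicates 1, 2 and 3, against 3791, 2233 and 2723 without it. The difference was -840, -400 and -580 ranks, a mean of -607 ± 221 (SD, n = 3; exact two-sided sign-flip permutation p = 0.25, the smallest possible). From the weakest to the strongest quintile of members, the word's share was 36.0%, 39.6%, 44.2%, 45.2% and 58.9%. For the DRE these shares were 7.61%, 6.09%, 6.60%, 8.12% and 8.12%, and the median signal was 402.2 with it (322.0 to 489.5) and 378.2 without it (356.9 to 397.4). Members with both words were 27 of 985 (2.74%). One-sided peaks also had a higher median signal with the forkhead word, 353.1 against 271.9 without it.

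Most divergent coding sites of the genome had no peak, and the share with one varied with the distance between the starts. The annotation held 2511 sites with coding starts pointing away from each other within 1000 bp. A peak within 500 bp of both starts was present at 804 (32.0%, 30.2% to 33.9%), 217 (8.64%) had only a region of the pooled list outside the optimal one, and 1490 (59.3%) had neither. The share with a peak was 45.2% at distances over 0 to 100 bp, 32.6% at 100 to 200 bp, 43.9% at 200 to 300 bp, 38.2% at 300 to 400 bp, 24.8% at 400 to 600 bp and 5.57% at 600 to 1000 bp. The last falls in part by construction, as little sequence there is within 500 bp of both starts. Of 13038 coding transcript starts with no opposite coding start within 1000 bp, 2583 (19.8%, 19.1% to 20.5%) had any peak within 500 bp, but a lone start and a pair of starts cover unequal lengths of sequence. The interval at 100 to 200 bp (27.6% to 37.8%) lay below those of its neighbours (40.3% to 50.1% and 39.6% to 48.3%).

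**Figure D5:**
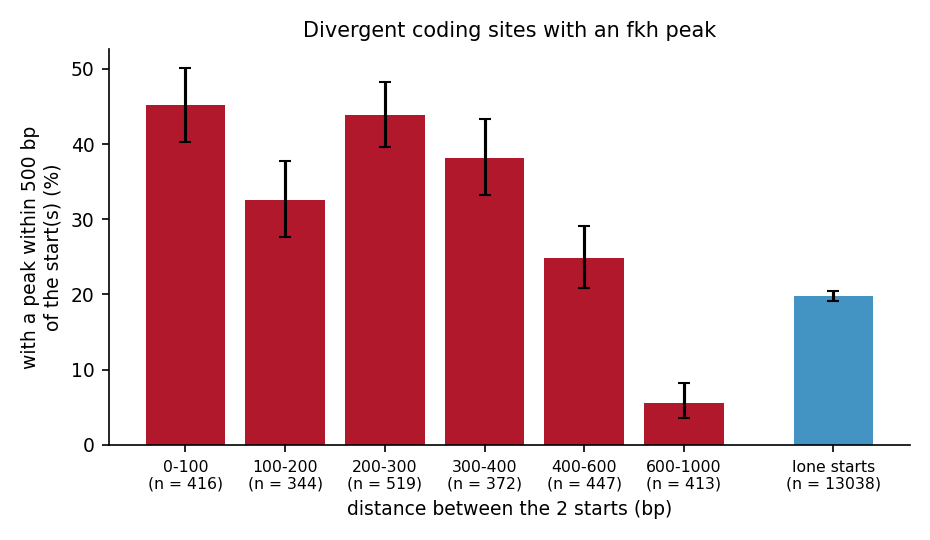
The percentage of divergent coding sites with a member peak (y axis) by the distance between the starts (bp, x axis; n sites under each bar), and, at the right, of coding transcript starts with no opposite coding start within 1000 bp that have any peak within 500 bp. Lines are exact 95% intervals; the bars are highest at over 0 to 100 bp (45.2%) and 200 to 300 bp (43.9%).

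Counted by gene, 1960 of the 4875 coding genes at a divergent site had a peak of any kind within 500 bp of a start (40.2%, 38.8% to 41.6%). Among the 9070 coding genes at no such site, 1782 did (19.6%, 18.8% to 20.5%). A gene at a divergent site can count a peak on its neighbour's side, which was not separated here. In windows of 50 bp to each side of the midpoint of the starts, the forkhead word was at 36.4% of sites with a peak (33.1% to 39.9%) and 32.3% of sites with neither peak nor region (29.9% to 34.7%). TGTTTAY was at 10.3% of sites with a peak (8.31% to 12.6%) and 6.31% of those with neither (5.13% to 7.67%). The DRE was at 6.09% with a peak (4.54% to 7.98%) and 3.96% with neither (3.03% to 5.08%). The GAGA word was at 7.21% with a peak and 8.39% with neither. The intervals overlap for the forkhead word, the DRE and the GAGA word, but not for TGTTTAY. The median distance between the starts was 252 bp at sites with a peak and 345 bp at sites with neither. Its part in these shares was not tested.

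Members lay at many ribosomal protein genes, which all cells use, though these were few of the genes at members. Of 13945 coding genes, 1635 (11.7%) had a start within 500 bp of a member, and of the 4875 genes at a divergent site 32.6% did. The share among genes at a divergent site is given below because lists differ in how many of their genes sit at one. These counts describe the lists and carry no test. Cytosolic ribosomal protein genes had a member at 29 of 93, or 29 of the 56 at a divergent site (51.8%). The strongest were at RpL34a (signal 1411.1, ranks 280, 139 and 88), RpL29 (1164.5), RpLP1 (1006.6) and RpS27 (920.2). Mitochondrial ribosomal protein genes had one at 26 of 73, or 44.8% of the 58 at a divergent site, led by mRpS10 with 1175.1, mRpS23 with 1172.4 and mRpL48 with 1147.8. The partners of RpL29 and RpS27 were Sgf29, of the SAGA complex, and Nup37, of the nuclear pore.

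Genes of transcription and RNA processing followed. Mediator and TFIID genes, which link regulators to RNA polymerase II, had a member at 13 of 40 (43.3% of those at a divergent site), led by MED27 with 1029.0 and MED28 with 934.6. Taf10b and Taf10, both TFIID subunits, face each other across 1 peak of 681.9 with ranks of 1173, 1070 and 1621. RNA polymerase subunits had 6 of 30, or 35.3% of those at a divergent site, near the 32.6% of all coding genes. Polr2B was among them with 565.7. The splicing and exosome list had 9 of 31, or 33.3% of those at a divergent site, close to the 32.6% of all coding genes. It was led by Prp18 with 1316.4 and SmD3 with 899.9; Rrp1, a DNA repair gene with a peak of 791.4, is in that list through its symbol. Translation initiation factors had 7 of 44, led by eIF2Bepsilon with 670.8, and aminoacyl-tRNA synthetases 5 of 33, led by ArgRS-m with 1029.0. Of the genes at a divergent site, 33.3% of the initiation factors and 21.7% of the synthetases had a member, beside 32.6% of all coding genes.

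Genes of protein turnover and membranes were also present. Autophagy genes had a member at 9 of 20, or 9 of the 15 at a divergent site, led by Atg9, a membrane protein of the forming autophagosome, with 1168.2 and ranks of 633, 114 and 380. Atg4b, a protease that processes Atg8, followed with 1130.7 and ranks of 400, 249 and 382. Vesicle sorting and tethering genes had 18 of 59, or 18 of the 40 at a divergent site, led by Vps13D, Trs33 with 1005.9 and Cog6 with 930.4. Proteasome genes had 11 of 48, or 42.3% of those at a divergent site, led by Rpn6 with 1166.8 and Rpt2 with 864.5. V-ATPase genes had 5 of 33, or 35.7% of those at a divergent site, near the 32.6% of all coding genes. They were led by Vha26 with 794.2. Respiratory complex I genes had 5 of 40 (12.5%, close to the 11.7% of all coding genes), or 22.7% of those at a divergent site, led by ND-51 with 1311.8. Mitochondrial import genes had 4 of 15, and 4 of the 5 at a divergent site, among them Tim8 with 476.0, whose partner hop encodes the fly JAK kinase. DNA replication genes had 3 of 21, or 21.4% of those at a divergent site, against 32.6% of all coding genes. They were led by PCNA2 with 766.1, and Mcm2 shares its peak of 653.4 with RPA1, the gene of a single-strand binding subunit.

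Regulators of the salivary gland and genes of the ecdysone response often had an fkh peak, but at members their shares were near that of all coding genes. Of 14 salivary gland regulators matched, 10 (71.4%) had some fkh peak within 500 bp of a start and 1 (7.14%), tai, had a member. Of 15 ecdysone response genes matched, 13 (86.7%) had some peak and 2 (13.3%), tai and usp, had a member. Over all coding genes these shares were 26.8% for any peak and 11.7% for a member. tai encodes a coactivator of the ecdysone receptor and usp the partner of that receptor. The tai peak, shared with CG9586, had a signal of 786.4 and ranks of 1359, 648 and 758, and that counted for usp had 180.9. Only 2 of the 14 salivary gland regulators and 4 of the 15 ecdysone response genes are at a divergent site at all, against 35.0% of coding genes. Of these 2 and 4 genes, 1 and 2 had a member. They are too few to compare with the 32.6% of all coding genes at a divergent site.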

How the data were processed

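Peak lists of 3 biological replicates of 1 group were used on the dm6 build. Per the deposited file lists, the authors made a list for each replicate against 1 shared control, a pooled list, and an optimal list kept after a reproducibility (IDR) step. The deposited signal is the authors' strength score in the seventh column, and its scale is not given in the sources used here, nor are the aligner, caller and thresholds. The dm3 lists and the −log10 columns were not used here.

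Starts were the first bases of all protein-coding transcripts of protein-coding genes in Ensembl release 115. Sequence was the release 6 assembly. An optimal peak took the best rank among the replicate regions it overlapped by at least 1 bp, and presence meant overlap with one of the 9531 strongest. Intervals are exact binomial (Clopper-Pearson) or order-statistic intervals at 95%. Peaks and genes are not replicates, so the tests were exact two-sided sign-flip permutations over the 3 replicates, and shares over the optimal list, gene lists and sites carry no test. Peak classes were checked at random positions, the forkhead word scan in simulated sequences and the sign-flip test on 3 set differences. Python 3.11.15, numpy 2.4.6, pandas 2.3.3 and scipy 1.17.1 were used.

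The genes named are both genes of the 15 pairs with the strongest member, up to 4 genes of each of 16 lists with the strongest member, and the 3 pairs among the 200 strongest members whose ranks differed most. endos/CG6650 and Elp6/Dic1 were named for their 3 summits after their values were seen. Sequences were chosen by strength among stretches of 60 to 300 bases outside exons and not on chromosome arm 2R. The members and lists were chosen with earlier results of these data known. Of 15 salivary and 18 ecdysone symbols, 1 and 3 had no match. The labels call the samples biological replicates without saying how they were raised, so the spread between them may be partly technical.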

Additional observations from a re-analysis of the deposited data

How the results depend on the processing

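Lists without read counts leave depth unknown, and 3 replicates cannot take the sign-flip test below 0.25, or below 0.5 when 1 is left out. The forkhead word difference turned from -6.09 to 0.0317 points within 100 bp of the summit. The rank, forkhead and DRE differences otherwise kept their direction in every alternative run: with 1 replicate left out, -5.4 to -3.33, -6.63 to -5.18 and 4.36 to 5.1 points. With starts within 250 bp there were 549 members, a median signal of 433.5, 86.7% in all replicates and 20.3% of sites with a peak. Within 1000 bp the median signal was 356.6, 81.3% were in all replicates, 60.5% of summits lay between the starts and 42.6% of sites had a peak. Outermost gene starts alone put 62.6% of summits between the starts. Leaving out summits less than 300 bp from a stronger summit, the median signal was 426.1. The stronger 50% of the peaks held 643 members, with a median signal of 515.6, the forkhead word at 48.4%, 71.5% of summits between the starts and 23.4% of sites with a peak. The share of members in all 3 replicates was 58.2% with the 4766 strongest regions, 97.4% with all 30000 and 46.9% with 50% overlap. No one-sided shares were taken under these settings. Words within 25 and 100 bp gave 24.8% and 72.6% for the forkhead word and 3.45% and 12.2% for the DRE. With 1 replicate left out, only members in both others were kept, 850 to 902 of them, or 86.3% to 91.6%. Their median signal was 402.3 to 419.7, the forkhead share 44.3% to 45.3% and the DRE share 7.06% to 7.26%. Keeping the stronger peaks raises the median signal by construction, and presence in the replicates followed the signal. The causes of the other shifts were not tested.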

Other observations

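At the edge of the rule, the 44 members whose farther start lay over 450 to 500 bp from the summit had a median signal of 360.3, and the 49 peaks just outside it, at over 500 to 550 bp, had 384.6. The forkhead word was near 56.8% of those inside (41.0% to 71.7%) and 63.3% of those outside (48.3% to 76.6%). Members with the motif 7 core had a median signal of 424.4 (372.0 to 489.5, 128 members), against 373.8 without it (353.4 to 394.7), and median ranks of 2717.5, 1589.5 and 1766.5 in replicates 1, 2 and 3, against 3480, 2229 and 2519 without it. Members with the GAGA word had median ranks of 3513, 3000 and 3043 in the same replicates, against 3354, 1999 and 2319.5 without it, so the difference was small in replicate 1 and larger in the others. These comparisons were picked after their values were seen and carry no test.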
